A study of Mus musculus with 13 samples.

Results

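The 10 genes described here are Trib3, Atf4, Atf5, Ddit3, Ddit4, Chac1, Asns, Sesn2, Ppp1r15a and Nupr1, all of them genes of the integrated stress response. They were taken by symbol from a table of 21084 genes, and all 10 were among the 15835 genes that passed the filter on low counts. The set was selected on the CPM values of Trib3, which were higher with interferon alpha (IFNa) in these same libraries, so the IFNa values of Trib3 are given as a description, without a p-value or a call. The IFNa comparisons of the other 9 genes are described in the same way. Counts of the 10 genes past the threshold in these comparisons appear only in the closing section on processing, where they support nothing. The antibody comparisons were not used to choose the set, although they share libraries with the IFNa comparisons.

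The data were bulk RNA sequencing libraries of gamma delta (gd) intraepithelial lymphocytes, T cells that sit within the gut lining, sorted from small intestines of wild-type mice. There were 3 UC7-IFNa, 3 UC7-PBS, 4 IgG-IFNa and 3 IgG-PBS libraries, 13 in all, with 19867201 to 26895876 estimated counts each. Every mouse received 200 µg of antibody into the peritoneum, either UC7-13D5, which binds the gd T cell receptor, or Armenian hamster IgG as its control. The labels place the injections 48 and 24 h before the cells were isolated, while the design text reads 48 or 24 h before the next treatment, so the number of doses is uncertain. IFNa (1 µg) or phosphate-buffered saline (PBS) followed intravenously 5 h before isolation. The age and sex of the mice, and whether a library held cells of 1 mouse or of several, are not given in the sources used here, so p-values measure only the spread between these libraries.

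In the integrated stress response, any of a small set of kinases phosphorylates the translation initiation factor eIF2. General protein synthesis then falls, while a few mRNAs, ATF4 among them, are translated more. ATF4 is a transcription factor that switches on genes for amino acid supply, redox balance and, through CHOP (encoded by Ddit3), for cell death. One of the kinases, PKR (Eif2ak2), is itself made in response to type I interferon and senses double-stranded RNA. Because ATF4 and ATF5 are controlled largely at translation, their mRNA levels report only part of their activity.

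ATF4 and its C/EBP partners bind a composite element, searched here as the letters TGATGNAA on both strands. In the RefSeq promoters of the GRCm38.p6 build, 10 of 10 genes were matched, with 11 promoters. The 250 bases before the annotated start held the element in Chac1, Asns and Nupr1, 3 of the 10 genes. Over all promoters of the same length, 1134 of 32851, or 3.45%, held it. These 3 windows and that of Trib3, the gene from which the set was chosen, are shown 5′ to 3′ on the strand of the gene, with matches to the element in capitals. They are Trib3 (chr2:152344061-152344310, minus strand), Chac1 (chr2:119350992-119351241, plus strand), Asns (chr6:7693210-7693459, minus strand) and Nupr1 (chr7:126625471-126625720, minus strand).
Trib3: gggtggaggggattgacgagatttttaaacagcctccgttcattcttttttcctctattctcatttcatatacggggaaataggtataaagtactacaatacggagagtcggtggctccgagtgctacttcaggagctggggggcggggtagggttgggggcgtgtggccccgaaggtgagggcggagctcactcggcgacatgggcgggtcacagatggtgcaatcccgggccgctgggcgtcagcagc
Chac1: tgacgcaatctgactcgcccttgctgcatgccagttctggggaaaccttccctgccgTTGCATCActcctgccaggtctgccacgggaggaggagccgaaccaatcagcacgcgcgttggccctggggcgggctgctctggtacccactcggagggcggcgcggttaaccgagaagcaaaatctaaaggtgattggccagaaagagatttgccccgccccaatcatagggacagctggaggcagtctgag
Asns: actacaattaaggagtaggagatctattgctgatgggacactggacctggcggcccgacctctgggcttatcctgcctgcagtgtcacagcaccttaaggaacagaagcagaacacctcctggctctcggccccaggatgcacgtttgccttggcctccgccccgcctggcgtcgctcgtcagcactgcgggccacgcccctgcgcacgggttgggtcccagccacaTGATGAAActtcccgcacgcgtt
Nupr1: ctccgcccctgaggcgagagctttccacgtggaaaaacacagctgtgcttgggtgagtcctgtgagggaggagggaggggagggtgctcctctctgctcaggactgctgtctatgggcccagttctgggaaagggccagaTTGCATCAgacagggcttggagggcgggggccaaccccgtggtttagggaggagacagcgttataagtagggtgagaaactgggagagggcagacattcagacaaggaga
The match began 193 bases before the start in Chac1, 110 in Nupr1 and 23 in Asns, and in Chac1 and Nupr1 it read on the opposite strand, as TTGCATCA. The window before the start of Trib3 held none, but a match lay 15 to 22 bases after the start, again on the opposite strand (chr2:152344031-152344054, minus strand):
Trib3, after the start: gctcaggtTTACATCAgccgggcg
The interferon-stimulated response element, searched on both strands as GAAA, any 2 bases and GAAA again, lay before the start of Ppp1r15a and of no other of the 10 genes (2.98% of all promoters). The cAMP response element TGACGTCA was likewise found only in Ppp1r15a (1.55% of all promoters). No match overlapped another. Such matches describe letters in a window and say nothing of binding in these cells.

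The libraries carried the 12 markers of gd intraepithelial lymphocytes in every library, with Trdc, the delta chain constant region, at 159 to 210 CPM (counts scaled to library size by the trimmed mean of M values). Over all libraries, markers of other cells summed to 143 to 300 CPM for absorptive enterocytes, 121 to 230.2 CPM for myeloid and dendritic cells, 435.7 to 1066 CPM for B and plasma cells (7 of 10 markers in the table, highest in UC7-IFNa library 2), 1561 to 2769 CPM for alpha beta T cells and 13.2 to 35.5 CPM for stroma and endothelium. Single genes weighed heavily in the first sums. Epcam alone had 118.7 to 159.2 CPM among the enterocyte markers, where the next highest, Apoa1, reached 47.05 CPM. Itgax alone had 87.3 to 183 CPM among the myeloid markers, where the next highest, Cd68, reached 15.22 CPM. UC7-IFNa library 2 stood apart on the first principal component (108, against -26.5 to 11.1 in the other 12 libraries) and had 1.14% of its counts in Rn18s, against 0.0866% to 0.333%. Transcripts that differ by sex also divided the libraries. Xist stood at 1.08 CPM or less in all UC7 libraries and at 265 to 345 CPM in the IgG-PBS libraries, while summed Y-linked transcripts stood at 132 to 329 CPM in UC7 libraries and at no more than 0.310 CPM in IgG-PBS libraries. IgG-IFNa libraries 1 and 2 followed the IgG-PBS pattern (Xist at 204 and 215 CPM), and libraries 3 and 4 held both (Xist at 68.3 and 23.4 CPM, Y-linked at 210 and 320 CPM). Antibody and sex therefore cannot be told apart in the comparisons of UC7-13D5 with IgG. For each of the 10 genes, the IFNa comparison after IgG is given with and without IgG-IFNa libraries 3 and 4, and that after UC7-13D5 with and without UC7-IFNa library 2.

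IFNa acted in both antibody arms. Of 12 interferon-stimulated genes, 12 rose after UC7-13D5 and 10 after IgG, in edgeR's quasi-likelihood test with Benjamini-Hochberg adjustment. Ifit3, an antiviral effector, averaged 64.2 ± 23.5 CPM in UC7-IFNa and 2.25 ± 0.707 CPM in UC7-PBS libraries (SD, n = 3 each). After IgG it averaged 48.7 ± 12.5 CPM with IFNa (SD, n = 4) and 4.70 ± 1.32 CPM with PBS (SD, n = 3).

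Trib3 encodes a pseudokinase that is induced through ATF4 and CHOP, binds ATF4 and the kinase AKT, and dampens the response that makes it (ENSMUSG00000032715, mm39 chromosome 2, 152179342 to 152185953, minus strand, positions of all genes as the deposited table gives them). After IgG it had 14.6, 15.8, 17.8 and 20.2 CPM in IgG-IFNa libraries 1 to 4, against 6.54, 7.39 and 7.40 CPM in IgG-PBS libraries. Every IFNa library lay well above the highest PBS library, so the groups did not overlap. The fitted log2 fold change was 1.27 (SE 0.18), or 2.41-fold. After UC7-13D5 it had 13.0, 17.4 and 17.2 CPM in UC7-IFNa libraries, against 9.76, 9.36 and 9.67 CPM in UC7-PBS libraries. The groups again did not overlap, and the log2 fold change was 0.72 (SE 0.19), or 1.65-fold. Without IgG-IFNa libraries 3 and 4, which are also its highest, the log2 fold change after IgG was 1.10. Without UC7-IFNa library 2, it was 0.65 after UC7-13D5. The share of counts in mitochondrially encoded transcripts, a measure of RNA quality, moved with the same groups. It was 0.582% to 0.801% in IgG-IFNa libraries, against 0.866% to 1.73% in IgG-PBS libraries. It was 0.611%, 1.23% and 0.618% in UC7-IFNa libraries, against 1.07% to 1.47% in UC7-PBS libraries, so that only library 2 overlapped the UC7-PBS range. All 13 such transcripts had negative log2 fold changes with IFNa in both arms, with medians of -0.75 after IgG and -0.50 after UC7-13D5. None passed an adjusted p of 0.05 by edgeR's quasi-likelihood test (9 of 13 after IgG and 3 of 13 after UC7-13D5 had an unadjusted p under 0.05), and DESeq2 passed 1 and 0 in these comparisons. Their part in the values of Trib3 was not tested.

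**Figure D1:**
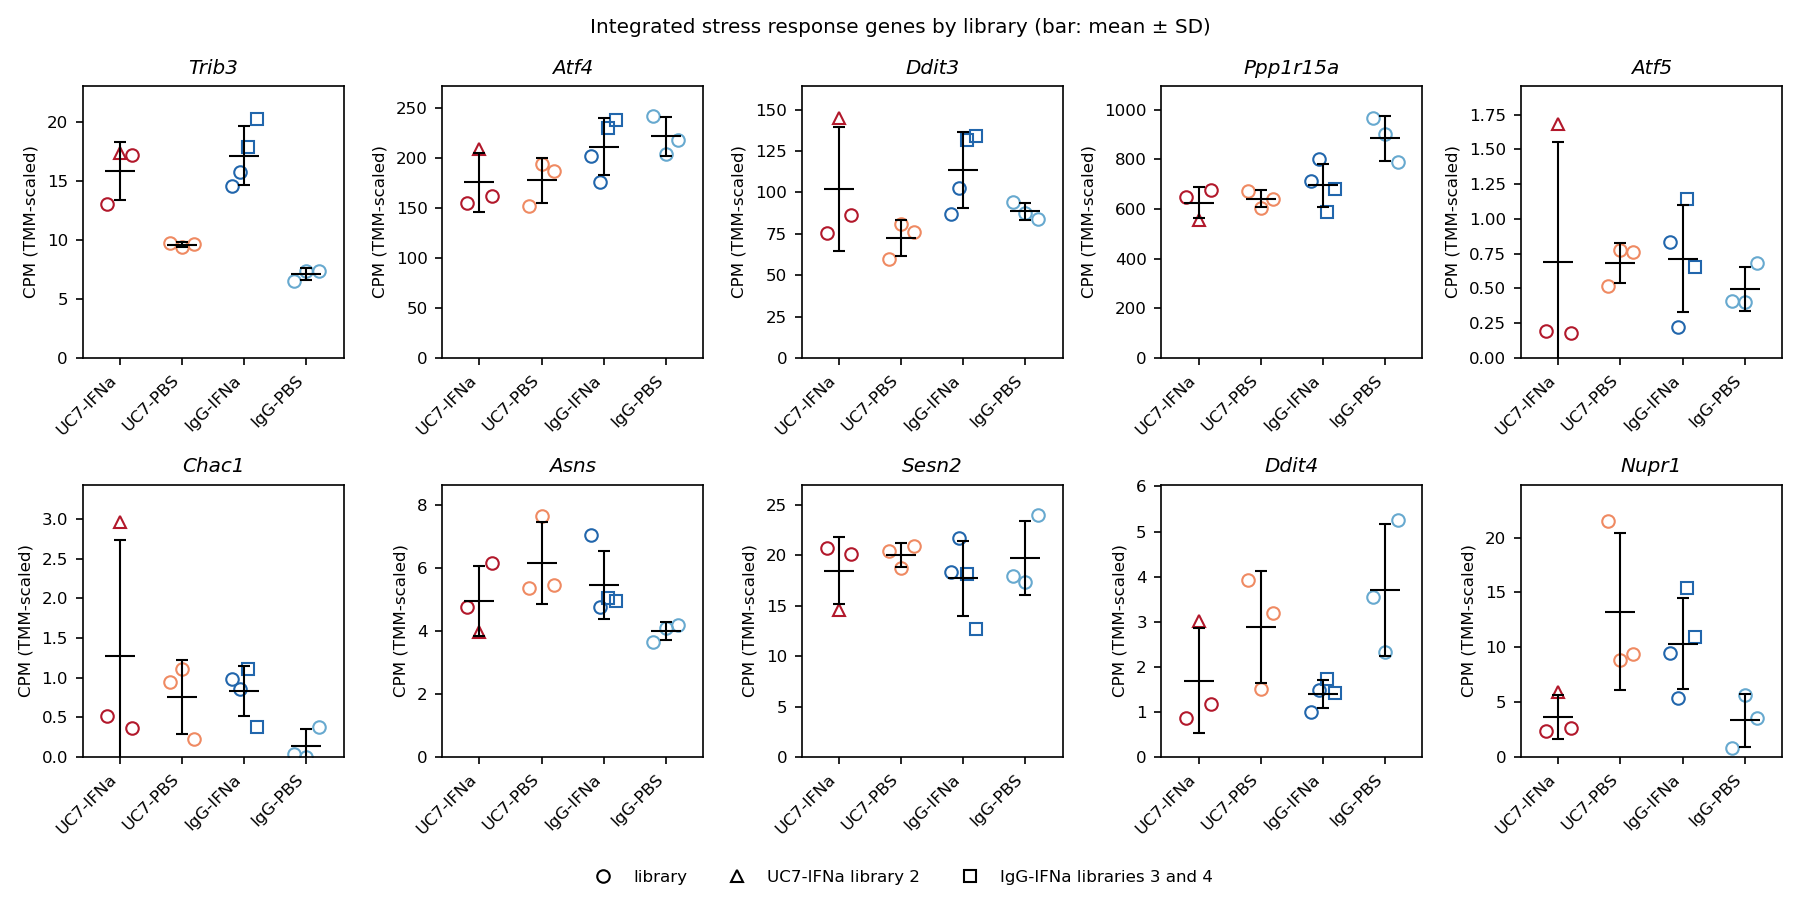
CPM of the 10 genes (y axis, linear from 0, own scale per gene) in the UC7-IFNa, UC7-PBS, IgG-IFNa and IgG-PBS groups (x axis), with 1 point per library, the bar at the mean and whiskers of 1 SD. Trib3 separates IFNa from PBS libraries in both arms, at 13.0 to 20.2 CPM with IFNa and 6.54 to 9.76 CPM with PBS, while Atf4 and Sesn2 overlap between IFNa and PBS.

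The transcription factors did not follow Trib3 in a uniform way. Atf4, the central activator of the response (ENSMUSG00000042406, chromosome 15, 80139385 to 80141743, plus strand), had 202, 176, 231 and 238 CPM in IgG-IFNa libraries, against 243, 205 and 218 CPM in IgG-PBS libraries. It had 155, 210 and 163 CPM in UC7-IFNa libraries, against 152, 194 and 187 CPM in UC7-PBS libraries. Within each arm its IFNa and PBS ranges overlapped, and the log2 fold changes were -0.07 (SE 0.16) after IgG and -0.02 (SE 0.17) after UC7-13D5. They were -0.23 without IgG-IFNa libraries 3 and 4 and -0.17 without UC7-IFNa library 2. The 95% intervals were -0.37 to 0.24 after IgG and -0.34 to 0.31 after UC7-13D5. They are a description and no test against Trib3, on whose IFNa values the set was chosen. Its estimated counts were not whole in any of the 13 libraries, so some of its reads may be shared with other features.

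Ddit3 encodes CHOP, which carries a lasting response toward cell death (ENSMUSG00000025408, chromosome 10, 127126643 to 127132158, plus strand). It had 86.8, 103, 131 and 134 CPM in IgG-IFNa libraries, against 94.3, 87.6 and 84.2 CPM in IgG-PBS libraries. The highest values came from IgG-IFNa libraries 3 and 4, and the groups overlapped through library 1. The log2 fold change was 0.36 (SE 0.21), and 0.10 without libraries 3 and 4. In UC7-IFNa libraries Ddit3 had 75.6, 145 and 86.1 CPM, against 59.9, 80.7 and 76.0 CPM in UC7-PBS libraries. The high value was that of library 2, and the log2 fold change of 0.50 (SE 0.23) was 0.16 without it. Ddit3 overlaps Mars1 and Gm4189 on the other strand, and no strand-specific counting is stated, so its counts are uncertain to that extent.

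Atf5, a factor related to ATF4 that acts in the mitochondrial stress response (ENSMUSG00000038539, chromosome 7, 44461680 to 44466083, minus strand), was close to the limit of detection. It stood between 0.182 and 1.68 CPM, or 4 to 29 estimated counts, over the 13 libraries. Its log2 fold changes with IFNa, 0.51 (SE 0.72) after IgG and -0.05 (SE 0.76) after UC7-13D5, were within their error. The first was 0.08 without IgG-IFNa libraries 3 and 4 and the second -1.83 without UC7-IFNa library 2, and a change of the size of that of Trib3 was not detectable at this depth. It overlaps Il4i1 and Nup62 on the other strand.

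Ppp1r15a encodes GADD34, the inducible subunit that directs a phosphatase to eIF2 and ends the response (ENSMUSG00000040435, chromosome 7, 45172340 to 45175693, minus strand). It had 713, 800, 587 and 682 CPM in IgG-IFNa libraries, against 966, 902 and 788 CPM in IgG-PBS libraries. The groups overlapped in 1 library of each, the log2 fold change was -0.35 (SE 0.14), and it was -0.23 without IgG-IFNa libraries 3 and 4. In UC7-IFNa libraries it had 647, 555 and 675 CPM, against 674, 606 and 643 CPM in UC7-PBS libraries, with a log2 fold change of -0.03 (SE 0.15), or 0.0376 without library 2. All 6 UC7 libraries were thus below the lowest IgG-PBS library, with or without IFNa. Ppp1r15a overlaps Tulp2 on the other strand.

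A list of 18 genes that respond to cell dissociation and heat shock moved with the same groups. Its summed level was 9565 to 15000 CPM in IgG-IFNa libraries, against 16760 to 20370 CPM in IgG-PBS libraries. It was 9154 to 15880 CPM in UC7-IFNa libraries, against 9989 to 12670 CPM in UC7-PBS libraries. After IgG, Fos, Jun, Ier5 and Zfp36 fell (4 of 18, adjusted p 0.00379 to 0.0291, edgeR's quasi-likelihood test), with log2 fold changes from -1.47 to -0.72. Without IgG-IFNa libraries 3 and 4 none passed, and no gene of the list passed in the other comparisons by edgeR. By DESeq2, 7 of the 18 fell with IFNa after IgG, 3 fell with IFNa after UC7-13D5, and 4 were lower in UC7-PBS than in IgG-PBS. Over the 13 libraries, which share the 4 treatment groups, the mean log2 level of the list had a Pearson r of 0.70 with Ppp1r15a and 0.687 with Ddit4, and of -0.608 with Trib3 and -0.634 with Asns. The part of this list in the values of these 4 genes was not tested.

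Among the effectors, Chac1, which degrades glutathione (ENSMUSG00000027313, chromosome 2, 119181710 to 119184863, plus strand), rested on few counts. It had 25, 23, 28 and 10 estimated counts in IgG-IFNa libraries, against 1, 0 and 10 in IgG-PBS libraries. In CPM, these were 0.989, 0.853, 1.11 and 0.383 with IFNa, against 0.0370, 0 and 0.378 with PBS. The groups did not overlap, though by a narrow margin, and the log2 fold change was 2.54 (SE 0.99), or 5.11 without IgG-PBS library 3, when the PBS group holds a single count and the fitted value is no bound. It was 2.68 without IgG-IFNa libraries 3 and 4. With UC7-13D5 it had 13, 51 and 8 estimated counts in UC7-IFNa libraries, against 22, 27 and 6 in UC7-PBS libraries. The log2 fold change there, 0.72 (SE 0.89), turned to -0.78 without UC7-IFNa library 2, which held 51 of the counts. Markers of secretory epithelium were higher in IgG-IFNa and UC7-PBS than in IgG-PBS libraries, as Chac1 was on average. Their log2 sum had a Pearson r of 0.64 with Chac1 over the 13 libraries, which share the 4 treatment groups. The r of the same sum was -0.665 with Ppp1r15a, 0.531 with Atf5 and 0.94 with Nupr1, and from -0.243 to 0.406 with the rest of the 10 genes. The 6 genes most correlated with Chac1, chosen for that likeness, were Pank3 (r of 0.884), Rab4a (0.869), Lypd8 (0.863), Selplg (0.86), Tff3 (0.826) and Lgals2 (0.823). Of these, Lypd8, Tff3 and Lgals2 are epithelial genes, and Tff3 is itself one of the secretory markers. The part of epithelial RNA in the values of Chac1, Ppp1r15a and Atf5 was not tested.

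Asns, asparagine synthetase (ENSMUSG00000029752, chromosome 6, 7675169 to 7693255, minus strand), had 7.04, 4.75, 5.05 and 4.94 CPM in IgG-IFNa libraries, against 3.66, 4.09 and 4.19 CPM in IgG-PBS libraries. All IFNa libraries lay above all PBS libraries, library 1 farthest, and the log2 fold change was 0.45 (SE 0.24). In UC7-IFNa libraries Asns had 4.77, 3.95 and 6.15 CPM, against 5.36, 7.64 and 5.46 CPM in UC7-PBS libraries. There the groups overlapped and the log2 fold change was -0.31 (SE 0.25), or -0.18 without UC7-IFNa library 2. Without IgG-IFNa libraries 3 and 4, that after IgG was 0.57.

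Sesn2, a leucine sensor that restrains mTORC1 (ENSMUSG00000028893, chromosome 4, 132219343 to 132237813, minus strand), varied little. It had 18.4, 21.7, 18.2 and 12.7 CPM in IgG-IFNa libraries, against 18.0, 17.3 and 24.0 CPM in IgG-PBS libraries. UC7-IFNa libraries had 20.7, 14.6 and 20.1 CPM, against 20.5, 18.7 and 21.0 CPM in UC7-PBS libraries. The groups overlapped in both arms, with log2 fold changes of -0.16 (SE 0.20) after IgG and -0.12 (SE 0.21) after UC7-13D5. They were 0.0221 without IgG-IFNa libraries 3 and 4 and 0.0178 without UC7-IFNa library 2.

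Ddit4 encodes REDD1, which also restrains mTORC1 and is induced by glucocorticoids and low oxygen as well as by ATF4 (ENSMUSG00000020108, chromosome 10, 59785491 to 59787657, minus strand). It had 0.989, 1.48, 1.74 and 1.42 CPM in IgG-IFNa libraries, against 3.55, 2.33 and 5.25 CPM in IgG-PBS libraries. It was thus lower in every IFNa library, the reverse of Trib3, with a log2 fold change of -1.40 (SE 0.44), or -1.58 without IgG-IFNa libraries 3 and 4. The summed dissociation and heat-shock genes above were also lower in every IgG-IFNa library than in any IgG-PBS library. In UC7-IFNa libraries Ddit4 had 0.867, 3.02 and 1.19 CPM, against 3.93, 1.51 and 3.18 CPM in UC7-PBS libraries. Library 2 was the exception among the IFNa libraries, and the log2 fold change of -0.79 (SE 0.48) became -1.496 without it.

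In a list of 8 glucocorticoid-responsive genes, 1 gene fell with IFNa after IgG and none rose. It was Sgk1, a kinase, at a log2 fold change of -0.85 (SE 0.16, adjusted p = 0.0215, edgeR's quasi-likelihood test). By DESeq2, 3 fell with IFNa after IgG, Tsc22d3 and Dusp1 in addition. Sgk1 had 23.2, 24.9, 16.3 and 16.7 CPM in IgG-IFNa libraries, against 36.5, 38.0 and 35.2 CPM in IgG-PBS libraries. In UC7-IFNa libraries it had 19.4, 20.6 and 21.8 CPM, against 30.6, 32.4 and 29.5 CPM in UC7-PBS libraries. Without IgG-IFNa libraries 3 and 4, no gene of this list passed. The groups did not overlap in either arm, and the log2 fold change of Sgk1 after UC7-13D5 was -0.58 (SE 0.18, adjusted p = 0.365).

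Nupr1, a small stress-induced chromatin protein (ENSMUSG00000030717, chromosome 7, 126222421 to 126230034, minus strand), spanned the widest range among genes with a count in every library, from 0.776 to 21.5 CPM. It had 9.49, 5.38, 15.4 and 10.9 CPM in IgG-IFNa libraries, against 0.776, 5.66 and 3.55 CPM in IgG-PBS libraries. In UC7-IFNa libraries it had 2.40, 5.92 and 2.60 CPM, against 21.5, 8.87 and 9.40 CPM in UC7-PBS libraries. IFNa libraries thus ran higher after IgG, with 1 overlap, and lower after UC7-13D5, with none. The log2 fold change after IgG was 1.63 (SE 0.54), and 1.16 without IgG-IFNa libraries 3 and 4. After UC7-13D5 it was -1.88 (SE 0.57), and -2.41 without UC7-IFNa library 2.

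The 12 markers of secretory epithelium (goblet, Paneth, enteroendocrine and tuft cells) followed the same order as a sum, though UC7-IFNa library 2 overlapped the UC7-PBS range. By single marker, the median log2 fold change with IFNa was 1.47 after IgG, with 11 of 12 positive. After UC7-13D5 that median was -0.10, with 6 of 12 positive, so the markers as a list did not fall there as Nupr1 did. Their summed level was 675 to 1332 CPM in IgG-IFNa libraries, against 93.3 to 650.2 CPM in IgG-PBS libraries. It was 393 to 1354 CPM in UC7-IFNa libraries, against 933 to 2231 CPM in UC7-PBS libraries. All 12 were detected in every library, and the goblet genes Zg16 and Fcgbp rose with IFNa after IgG (2 of 12, adjusted p = 0.0208 and 0.0227, edgeR's quasi-likelihood test). Neither passed without IgG-IFNa libraries 3 and 4. DESeq2 passed 3 of 12 in that comparison and 2 of 12, Zg16 and Fcgbp, as higher in UC7-PBS than in IgG-PBS. Per 1000 CPM of these markers, Nupr1 stood at 7.97 to 13.7 CPM in IgG-IFNa libraries, against 6.44 to 8.70 CPM in IgG-PBS libraries. On that scale it stood at 4.38 to 6.62 CPM in UC7-IFNa libraries, against 8.60 to 9.64 CPM in UC7-PBS libraries. The log2 sum of the markers had a Pearson r of 0.94 with Nupr1 over the 13 libraries, which share the 4 treatment groups. The 6 genes most correlated with Nupr1, chosen for that likeness, were Lyz1, Defa24, Itln1, Defa43, Defa36 and Defa3, with r from 0.852 to 0.97. Lyz1, Defa24 and Itln1 are themselves among the markers. Fewer cells of a type and less RNA per cell cannot be told apart in bulk libraries, and the part of epithelial RNA in the Nupr1 values was not tested.

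**Figure D2:**
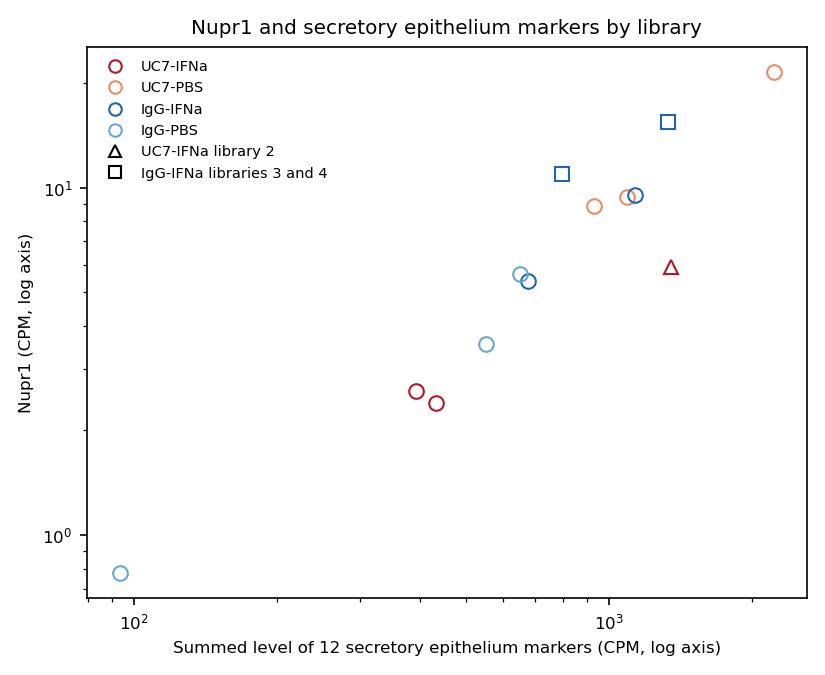
Nupr1 (CPM, log axis) against the summed level of 12 secretory epithelium markers (CPM, log axis), 1 point per library, coloured by group. Libraries with little marker signal, down to 93.3 CPM, also hold little Nupr1, and UC7-IFNa library 2 lies below the trend at 5.92 CPM.

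Seen as a set with IFNa after IgG, 6 of the 10 genes had a positive fold change and 4 a negative one, with a median log2 fold change of 0.40, against -0.01 over all genes tested. Trib3, Chac1 and Asns were higher and Ddit4 lower without overlap between groups, 4 of 10, where 14% of all genes did not overlap, 7.09% higher and 6.91% lower. After UC7-13D5, 3 were positive and 7 negative, with a median of -0.04, against 0.02 over all genes. Trib3 was higher and Nupr1 lower without overlap, 2 of 10, where 12% of all genes did not overlap, 5.89% higher and 6.09% lower. Over all genes, 0.827% passed an adjusted p of 0.05 with IFNa after IgG by edgeR's quasi-likelihood test, 0.619% of all genes passed as higher, and 2.73% passed by DESeq2. After UC7-13D5, 0.36% passed by edgeR and 0.876% by DESeq2. The counts of the 10 genes belong to the comparisons from which the set was chosen and are given as a description.

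**Figure D3:**
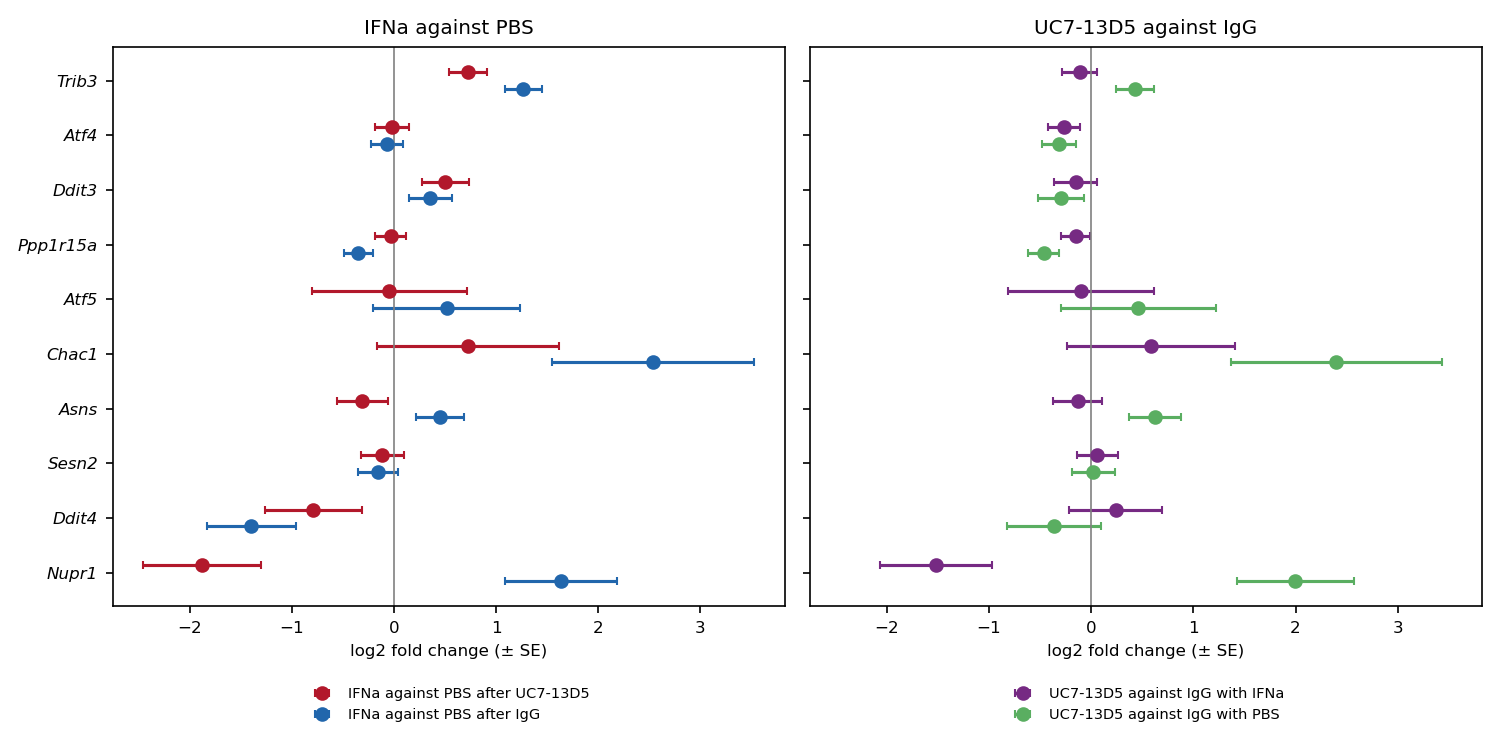
Fitted log2 fold change (x axis, whiskers of 1 SE) of each of the 10 genes (y axis) for IFNa against PBS (left, after UC7-13D5 and after IgG) and for UC7-13D5 against IgG (right, with IFNa and with PBS). Trib3 lies right of 0 in both IFNa comparisons (0.72 and 1.27), and Nupr1 lies on opposite sides (-1.88 and 1.63).

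UC7-13D5 was set against IgG with PBS and with IFNa, in both cases with the difference in sex-linked transcripts given above. With PBS, none of the 10 passed an adjusted p of 0.05 by edgeR's quasi-likelihood test or by DESeq2, where 0.00632% of all genes passed by edgeR and 0.352% by DESeq2. At an unadjusted p under 0.05 there were 5 of 10, where 5% of all genes lay. Trib3, Asns and Nupr1 were higher and Atf4, Ddit3 and Ppp1r15a lower in UC7-PBS without overlap, 6 of 10, where 12.4% of all genes did not overlap, 6.6% higher and 5.8% lower. Trib3 is in both of these counts. Its IgG-PBS values entered the choice of the set, so Trib3 in them supports nothing.

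Nupr1 averaged 13.3 ± 7.15 CPM in UC7-PBS and 3.33 ± 2.45 CPM in IgG-PBS libraries (SD, n = 3 each), a log2 fold change of 2.00 (SE 0.57, adjusted p = 0.454, edgeR's quasi-likelihood test). The secretory markers lay higher too, at 933 to 2231 CPM in UC7-PBS and 93.3 to 650.2 CPM in IgG-PBS libraries. Ppp1r15a averaged 641 ± 34.3 CPM in UC7-PBS and 885 ± 90.3 CPM in IgG-PBS libraries (SD, n = 3 each), a log2 fold change of -0.47 (SE 0.15, adjusted p = 0.550 by the same test). Trib3 averaged 9.60 ± 0.211 CPM in UC7-PBS and 7.11 ± 0.492 CPM in IgG-PBS libraries (SD, n = 3 each), a log2 fold change of 0.43 (SE 0.19, adjusted p = 0.886 by the same test). The IgG-PBS libraries of this comparison also enter the one that chose Trib3. Asns stood at 0.63 (SE 0.25, adjusted p = 0.823) and Chac1 at 2.40 (SE 1.03, adjusted p = 0.882), both by the same test, and Chac1 with the few counts and the secretory markers given above. The summed dissociation genes, at 9989 to 12670 CPM in UC7-PBS and 16760 to 20370 CPM in IgG-PBS libraries, differed in the direction of Ppp1r15a, and their part in its value was not tested. The sex-linked transcripts divided these groups without overlap.

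With IFNa, the groups overlapped for all 10 genes, where 6.78% of all genes did not overlap. No gene passed the threshold by either tool, where 0.0758% of all genes passed by edgeR and 0.621% by DESeq2, and 1 of 10 had an unadjusted p under 0.05, where 7.19% of all genes had. That gene was Nupr1, at 3.64 ± 1.98 CPM in UC7-IFNa (SD, n = 3) and 10.3 ± 4.15 CPM in IgG-IFNa libraries (SD, n = 4), a log2 fold change of -1.52 (SE 0.55, adjusted p = 0.517, edgeR's quasi-likelihood test). Trib3 averaged 15.9 ± 2.45 CPM in UC7-IFNa (SD, n = 3) and 17.1 ± 2.48 CPM in IgG-IFNa libraries (SD, n = 4). Its log2 fold change of -0.11 had a 95% interval from -0.45 to 0.22. That interval spans both directions, so it shows neither a difference nor that the levels reached with IFNa were alike. Ordered by mean, Trib3 ran from IgG-PBS through UC7-PBS and UC7-IFNa to IgG-IFNa, and the last 2 of these groups overlapped.

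Whether IFNa acted differently after UC7-13D5 than after IgG was tested by an interaction term, again by edgeR's quasi-likelihood test. Sex-linked transcripts differed between the arms and within the IgG arm, so antibody and sex cannot be told apart in this term either. None of the 10 genes passed, and 0% of all genes did, while DESeq2 passed none of the 10 and 0.0095% of all genes. At an unadjusted p under 0.05 there were 3 of 10, where 3.17% of all genes lay. These were Nupr1, Asns and Trib3. The set was chosen on the IFNa values of Trib3, so Trib3 in this count supports nothing. Nupr1 had the largest difference, at -3.51 on the log2 scale (SE 0.79, adjusted p = 0.9999, unadjusted p = 0.000451), with a 95% interval from -5.06 to -1.96. The 12 secretory markers had a median of -1.84 for the same term, and their part in that value was not tested. Asns followed the same sign at -0.76 (SE 0.35, adjusted p = 0.9999). For Trib3 the difference between its IFNa fold changes was -0.54 (SE 0.25), with a 95% interval from -1.04 to -0.05, given as a description.

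Few of the upstream kinases and other targets of the response passed the test. None of 16 genes for eIF2 kinases, eIF2 and eIF2B passed the threshold in any comparison, by edgeR or by DESeq2. Eif2ak2, the interferon-induced kinase PKR, had 35.6, 37.9, 34.0 and 36.6 CPM in IgG-IFNa libraries, against 23.2, 33.0 and 18.4 CPM in IgG-PBS libraries. Its log2 fold change was 0.53 (SE 0.27, adjusted p = 0.511, edgeR's quasi-likelihood test). It had 57.4, 19.8 and 39.2 CPM in UC7-IFNa libraries, against 28.5, 24.0 and 24.0 CPM in UC7-PBS libraries, a log2 fold change of 0.61 (SE 0.29, adjusted p = 0.661 by the same test). Library 2 was again the exception. The kinases HRI (Eif2ak1), PERK (Eif2ak3) and GCN2 (Eif2ak4) had log2 fold changes with IFNa of -0.05, 0.22 and -0.02 after IgG, and of 0.00, 0.05 and -0.07 after UC7-13D5. Ppp1r15b, the constitutive counterpart of GADD34, stood at 0.10 and -0.03 in the same comparisons.

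Among 11 tested genes of amino acid synthesis and one-carbon metabolism that ATF4 can induce, 1 rose with IFNa after IgG and none fell. It was Got1, the cytosolic aspartate aminotransferase, with 128, 156, 161 and 181 CPM in IgG-IFNa libraries, against 87.0, 94.5 and 84.3 CPM in IgG-PBS libraries. The log2 fold change was 0.82 (SE 0.15, adjusted p = 0.0205, edgeR's quasi-likelihood test), and Got1 did not pass without IgG-IFNa libraries 3 and 4. It had 145, 174 and 207 CPM in UC7-IFNa libraries, against 107, 121 and 108 CPM in UC7-PBS libraries, a log2 fold change of 0.64 (SE 0.16, adjusted p = 0.188 by the same test), where DESeq2 passed it (adjusted p = 0.0250). Got1 thus split IFNa from PBS libraries in both arms, as Trib3 did. Phgdh and Psat1, the first enzymes of serine synthesis, did not split in that way, with log2 fold changes of -0.22 (SE 0.15) and 0.01 (SE 0.16) after IgG, and of 0.15 (SE 0.16) and 0.14 (SE 0.17) after UC7-13D5.

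No gene passed in edgeR in any comparison among 8 amino acid transporters, 12 aminoacyl-tRNA synthetases with their export factor, 25 other ATF4 and CHOP targets and partners, 17 ER chaperones and ER stress genes, and 9 mitochondrial stress genes. By DESeq2, 1, 1, 2, 1 and 0 of these rose with IFNa after IgG, and none did after UC7-13D5. Those that rose were, by list, Slc3a2, Eprs1, Cebpg with Ndrg1, and Edem1. For UC7-13D5 against IgG with IFNa, DESeq2 passed 1 gene of these lists, Cebpb. Without UC7-IFNa library 2, edgeR passed 1, 1, 2, 0 and 0 after IgG. The median log2 fold change of these 5 lists lay between -0.03 and 0.18 after IgG, and between -0.06 and 0.08 after UC7-13D5. Cebpg, which pairs with ATF4 on the composite element, had 45.9, 49.8, 55.0 and 56.9 CPM in IgG-IFNa libraries, against 36.6, 37.3 and 35.0 CPM in IgG-PBS libraries. Its log2 fold change was 0.52 (SE 0.13, adjusted p = 0.0814, edgeR's quasi-likelihood test, and 0.0017 by DESeq2). In UC7-IFNa libraries it had 48.5, 51.3 and 55.4 CPM, against 43.5, 46.7 and 45.2 CPM in UC7-PBS libraries, so the groups did not overlap in either arm. Atf3, another stress-induced factor, stood at -0.04 (SE 0.23) after IgG and -0.36 (SE 0.25) after UC7-13D5.

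Genes that mark ER stress did not pass the threshold by edgeR. Hspa5, the chaperone BiP, had log2 fold changes of 0.14 (SE 0.18) after IgG and 0.06 (SE 0.19) after UC7-13D5. Xbp1 stood at 0.42 (SE 0.15, adjusted p = 0.295, edgeR's quasi-likelihood test) after IgG and at 0.28 (SE 0.16, adjusted p = 0.724 by the same test) after UC7-13D5. Cebpb, a C/EBP factor that ATF4 can pair with, averaged 7.40 ± 7.20 CPM in UC7-IFNa (SD, n = 3) and 1.41 ± 0.454 CPM in IgG-IFNa libraries (SD, n = 4). That log2 fold change was 2.38 (SE 0.56, adjusted p = 0.145 by the same test, and 0.00587 by DESeq2), and the highest value, 15.4 CPM, came from UC7-IFNa library 2.

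**Figure D4:**
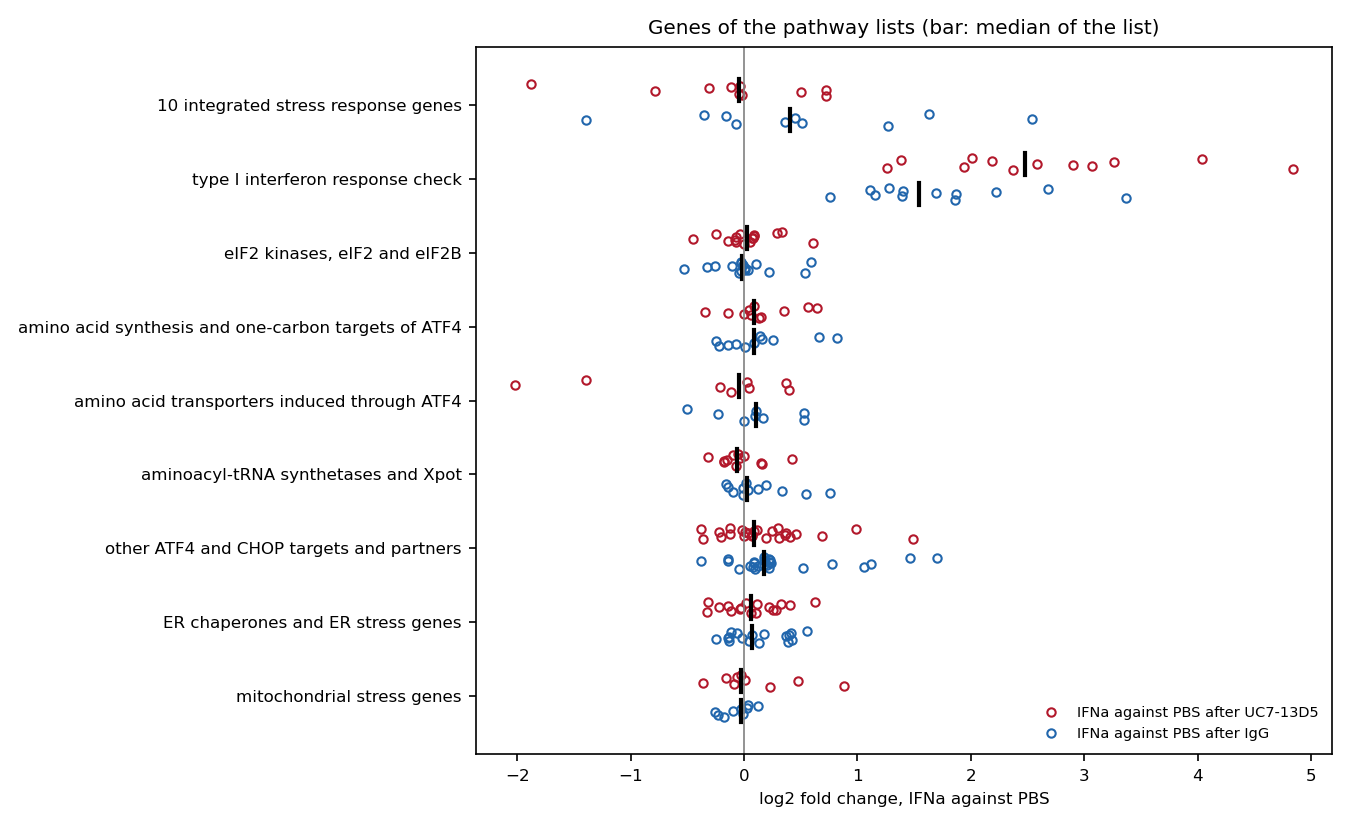
Log2 fold change of IFNa against PBS (x axis) for the genes of each list (y axis), 1 point per gene, after UC7-13D5 and after IgG, with a bar at the list's median. The 12 interferon-stimulated genes lie to the right of 0 in both arms, while the medians of the ATF4, ER and mitochondrial lists lie between -0.06 and 0.18.

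The genes whose levels ran most like Trib3 over the 13 libraries were not from the stress response lists. Among 8678 genes averaging a log2 CPM of 3 or more, the 6 with the highest Pearson correlation with Trib3 were Vps37b, Tmem140, Gpr146, Gpr160, Gabpb1 and Dgat1, with r from 0.959 to 0.978. These were chosen for that likeness, so their values are a description, and the 13 points share the 4 treatment groups. Vps37b, a subunit of the ESCRT-I sorting complex, had 2232 to 3033 CPM in IgG-IFNa libraries, against 1403 to 1452 CPM in IgG-PBS libraries. It had 2485 to 2961 CPM in UC7-IFNa libraries, against 1676 to 2003 CPM in UC7-PBS libraries. Dgat1, the enzyme of the last step of triglyceride synthesis, had 577, 661, 939 and 1158 CPM in IgG-IFNa libraries, against 265, 337 and 217 CPM in IgG-PBS libraries. It had 606, 647 and 809 CPM in UC7-IFNa libraries, against 355, 363 and 421 CPM in UC7-PBS libraries. Like Trib3, both genes had their lowest values in IgG-PBS, intermediate ones in UC7-PBS, and no overlap between IFNa and PBS in either arm. As with Trib3, IgG-IFNa libraries 3 and 4 were the highest of their group for both.

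**Figure D5:**
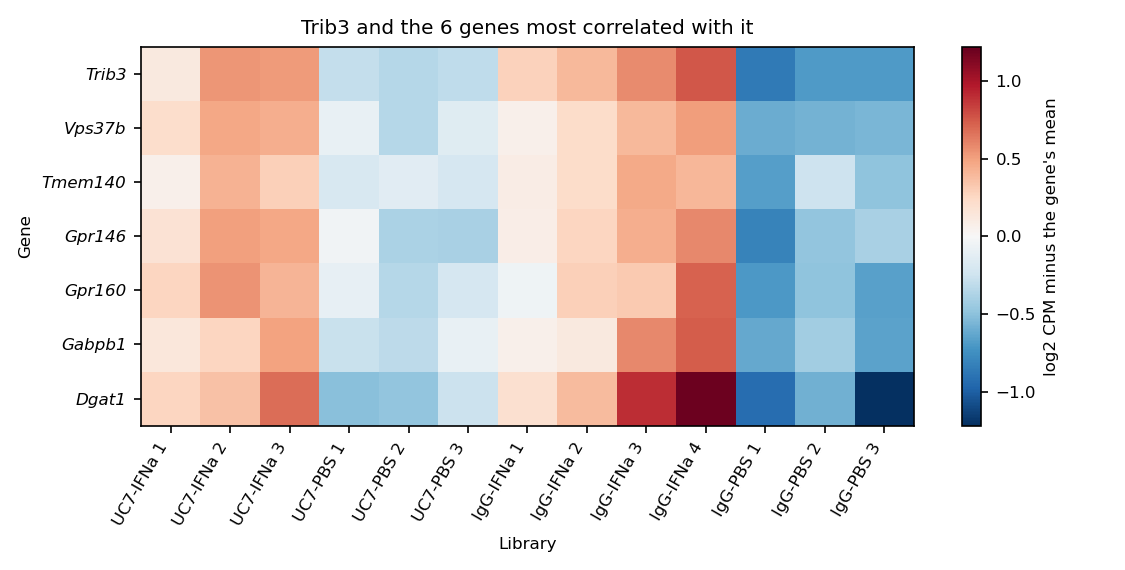
Log2 CPM minus the gene's mean (colour) of Trib3 and the 6 genes most correlated with it (rows) in the 13 libraries (columns, UC7-IFNa, UC7-PBS, IgG-IFNa and IgG-PBS from left to right). All 7 rows are on average lowest in IgG-PBS and higher in IFNa than in PBS libraries, with r to Trib3 from 0.959 to 0.978.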

How the data were processed

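Libraries of sorted gd intraepithelial lymphocytes were prepared by SMART-Seq HT, as the labels' protocols state. STAR 2.7.8a, Partek, DESeq2 and the build mm39 appear in the submitters' processing notes, without a role for each. The deposited table holds estimated counts per gene from the authors, not scaled between libraries, and 38% of its values are not whole, so reads shared between features may be split. The counts were rounded. Genes kept by filterByExpr at a minimum count of 10 (15835 of 21084) were fitted in 1 quasi-likelihood model of 13 libraries with a coefficient per group (edgeR 4.0.16, R 4.3.3). Libraries were scaled by TMM. Tests were two-sided F tests with Benjamini-Hochberg adjustment over all genes and a threshold of 0.05. The SE is the size of the log2 fold change divided by the square root of F, and 95% intervals are 1.96 SE either side. Counting error limits precision most for Atf5 and Chac1. DESeq2 1.42.0, RLE scaling, no filter, only the groups compared, a replicate block and left-out libraries were the alternatives. The authors' normalized table was not used here. Groups came from the sample titles. The 10 genes, the lists and the naming rule were chosen with earlier results of these data known. Named were all 10 genes, up to 4 members of a list past the threshold, fixed pathway genes, and the 6 genes most correlated with Trib3. Those most correlated with Chac1 and with Nupr1 were named in addition. The 10 genes, clone names and genes under a mean log2 CPM of 3 were left out of these rankings. Sequences came from RefSeq promoters (GRCm38.p6). Counts of all 15 pairs of libraries within a group differed by more than sampling noise.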

Additional observations from a re-analysis of the deposited data

Results flagged for a closer look

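Asns in the IgG-IFNa group had 1 library far from the others. Library 1 stood at 7.04 CPM, against 4.75 to 5.05 CPM in libraries 2 to 4, so the gap to the nearest library made up 0.867 of the group's range, above Dixon's 95% critical value for 4 libraries. The rule was run on each of the 10 genes in IgG-IFNa, the only group of 4 libraries. Chance flags about 1 in 20 of such tests, so a single flag among them can arise without a true outlier.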

How the results depend on the processing

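Of the alternative values for log2 fold changes of the 10 genes, 55 changed sign. Leaving out IgG-IFNa libraries 3 and 4 and UC7-IFNa library 2 together was chosen after seeing the data. Within the 13 fits that left out 1 library each, Trib3 after IgG ranged from 1.18 to 1.34. The genes past the threshold with IFNa after IgG (131) were 408 by DESeq2, 343 with only the groups compared, 21 without IgG-IFNa libraries 3 and 4, and 24 to 430 with 1 library left out (430 without UC7-IFNa library 2). Counts of the 10 genes in the IFNa comparisons hold Trib3, from which the set was chosen, and support nothing. After IgG, 1 passed, against 2 with only the groups compared (Ddit4 added), 0 without IgG-IFNa libraries 3 and 4, and 1 to 2 with 1 library left out. After UC7-13D5 (57), 138 passed by DESeq2, 22 with only the groups compared, 148 without all 3 libraries, and 29 to 110 with 1 left out, and of the 10 genes 1 by DESeq2. For UC7-13D5 against IgG with PBS (1), 64 passed by DESeq2, 0 with no filter, 19 with only the groups compared, 5 without IgG-IFNa libraries 3 and 4, 17 without all 3 libraries, and 0 to 4 with 1 left out. With IFNa (12), 118 passed by DESeq2, 0 with only the groups compared, 6 without IgG-IFNa libraries 3 and 4, and 0 to 52 with 1 left out. The interaction (0) gave 2 by DESeq2 and 0 to 1 with 1 left out. Libraries with the same number deviated together in 2 of 18 pairs (r above 0.1, range -0.21 to 0.135), against 11 of 45 pairs with other numbers. That gave no sign of pairing by number, but so few libraries per group cannot exclude it. With the replicate block, 27 genes passed after IgG, 34 after UC7-13D5 and 1 for UC7-13D5 against IgG with IFNa, and Sesn2 turned to -0.086 in the last and to -0.11 in the interaction. The changes of sign, with the cause not tested, were in small values or in genes led by UC7-IFNa library 2. Without IgG-IFNa libraries 3 and 4, Sesn2 after IgG was 0.0221, and for UC7-13D5 against IgG with IFNa Trib3 was 0.0586, Atf5 0.33, Ddit3 0.11 and Sesn2 -0.12, with Sesn2 at -0.14 in the interaction. Without all 3 libraries, Sesn2 was 0.0318 after IgG and 0.0241 after UC7-13D5, where Chac1 was -0.78 and Ppp1r15a 0.0437. For UC7-13D5 against IgG with IFNa Ddit4 was then -0.28 and Chac1 -1.06, and Sesn2 was -0.0077 in the interaction. With 1 library left out, after IgG Atf4 ranged from -0.13 to 0.0106 and Sesn2 from -0.27 to 0.00898. After UC7-13D5, Atf4 ranged from -0.17 to 0.0626, Atf5 from -1.83 to 0.41, Chac1 from -0.78 to 1.17, Sesn2 from -0.21 to 0.0178 and Ppp1r15a from -0.0926 to 0.0376. For UC7-13D5 against IgG with PBS, Sesn2 ranged from -0.0669 to 0.18. With IFNa, Trib3 ranged from -0.19 to 0.00806, Atf5 from -1.89 to 0.36, Ddit3 from -0.50 to 0.0178, Ddit4 from -0.47 to 0.56, Chac1 from -0.92 to 1.03, Asns from -0.32 to 0.0149 and Sesn2 from -0.0695 to 0.19. In the interaction, Atf4 ranged from -0.10 to 0.13, Ddit3 from -0.20 to 0.32, Ddit4 from -0.10 to 0.93 and Sesn2 from -0.12 to 0.17. Counting error limits Atf5 and Chac1, at fewer than 3 CPM in every library.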
